A study of Mus musculus with 20 samples.

Results

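The genes described here are 9 Toll-like receptor genes, Tlr1, Tlr2, Tlr3, Tlr4, Tlr6, Tlr7, Tlr8, Tlr9 and Tlr13, and Myd88, the adaptor that most of these receptors share. They were taken by name from the deposited gene table, which lists 25219 genes, and these 10 were found there once each. The table lists 12 Toll-like receptor genes in all, and Tlr5, Tlr11 and Tlr12 are treated below with the rest of the pathway.

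RNA was sequenced from 2 fat depots of tamoxifen-treated mice, inguinal white adipose tissue (iWAT) and brown adipose tissue (BAT), with 5 libraries of each of 4 groups. Ai-α4KO mice carry floxed alleles of α4, the regulatory protein of the PP2A phosphatase family encoded by Igbp1, and a tamoxifen-dependent Cre driven by the adiponectin promoter, so that the deletion is made in adipocytes and the other cells of the depot keep the gene. Control mice, labelled WT and described in the methods as floxed mice that lack the Cre, received tamoxifen as well, from the age of 2 months in 5 injections over 6 days, and tissue was taken 1 week after recombination. The labels do not say whether the iWAT and BAT libraries came from the same mice, nor that each library is 1 mouse, so the p-values measure the spread between these libraries.

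Toll-like receptors are innate immune sensors of microbial products and of molecules released by damaged cells. Tlr1, Tlr2, Tlr4 and Tlr6 act mainly at the cell surface, where Tlr2 pairs with Tlr1 or Tlr6 to bind lipopeptides and Tlr4 binds lipopolysaccharide together with Ly96. Tlr3, Tlr7, Tlr8, Tlr9 and Tlr13 sense nucleic acids in endosomes. Myd88 links them, apart from Tlr3, to the Irak kinases, Traf6 and NF-κB. In fat these receptors are found on macrophages and other immune cells, and some, such as Tlr4, also on adipocytes.

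All 20 libraries held between 24023371 and 50384446 counts assigned to genes. Igbp1 was lower in all 10 Ai-α4KO libraries: it lay at 57.5 to 76.6 CPM, counts scaled to a common library size, in Control iWAT and at 10.1 to 11.1 in Ai-α4KO iWAT, and at 85.4 to 105.0 and 13.7 to 25.2 CPM in BAT, and fell by 2.65 in iWAT and by 2.5 in BAT on the log2 scale (edgeR adjusted p 4.99e-08 and 2.2e-07). Libraries 1 and 4 of Control iWAT stood apart in lymphocyte markers, with B cell markers summing to 491.3 and 195.6 CPM against 6.12 to 8.03 in the other 3. Skeletal muscle markers summed to 6316.6 CPM in library 4 of Control iWAT and 5099.9 CPM in library 1 of Ai-α4KO iWAT, against at most 161.1 CPM in the other 8, and to 817.7 to 8827.7 CPM in Control BAT and 12041.8 to 39021.0 CPM in Ai-α4KO BAT. The 8 adipocyte markers were present in every library, and their sum was lower in Ai-α4KO with no overlap, at 20963.0 to 28210.4 CPM in Control iWAT and 11303.0 to 15859.8 CPM in Ai-α4KO iWAT, and at 20259.8 to 23559.5 and 12705.5 to 15049.8 CPM in BAT, with 6 of 8 called lower in each depot (edgeR adjusted p below 0.01 and at least 2-fold), where 10.7% of all genes tested in iWAT and 13.3% in BAT were called lower. The 5 endothelial markers were lower too, at 373.5 to 483.0 and 220.6 to 267.2 CPM in iWAT and 677.6 to 938.2 and 272.4 to 353.5 CPM in BAT, with 2 of 5 called lower in iWAT and 3 of 5 in BAT. The brown adipocyte markers summed to 7177.0 to 11177.1 CPM in Control BAT and 87.5 to 803.1 CPM in Control iWAT, and to 1373.6 to 2788.8 CPM in Ai-α4KO BAT and 7.64 to 21 CPM in Ai-α4KO iWAT, below the Control range of each depot. Of these 5 markers, 4 were called lower in iWAT and 2 in BAT, namely Ucp1 (log2 fold change -2.39) and Cidea (-2.65). Dio2, Elovl3 and Ppargc1a differed by 0.40, 0.36 and -0.15 in BAT and were not called. The 12 macrophage markers summed to 1661.0 to 2953.2 CPM in Control iWAT and 9201.0 to 12297.9 CPM in Ai-α4KO iWAT, and to 331.4 to 763.8 and 5402.7 to 9029.0 CPM in BAT, with no overlap in either depot. In bulk tissue, more cells of a type and more RNA per cell cannot be told apart.

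Several of the receptor genes lie close together. Tlr1 (mm10 chromosome 5, 64924680 to 64933558) and Tlr6 (chromosome 5, 64953095 to 64960034) are neighbours on the minus strand, and so are Tlr8 (chromosome X, 167242732 to 167263788) and Tlr7 (chromosome X, 167304926 to 167330571). Tlr13 lies elsewhere on chromosome X, at 106143275 to 106160493 on the plus strand. Tlr1 and Tlr6 are similar in sequence, and their counts were not exactly whole, with no tolerance for rounding, in 10 and 11 of 20 libraries, and neither were those of Tlr4 in 6, Myd88 in 3 and Tlr7 in 1. Counts that are not whole are estimates, and among which genes reads were divided is not shown, so the levels of Tlr1 and Tlr6 are uncertain to that extent. The sequence upstream of the start is shown for Tlr13, Tlr8 and Tlr9, because the DNA word GAGGAA, the core bound by the myeloid factor PU.1, was found there ahead of every annotated start. It was searched on both strands in windows of the 250 bases before each RefSeq start (GRCm38.p6). The stretch shown for Tlr13 is the first 179 bases of its window and stops short of the RefSeq start at 106143275, because the GENCODE annotation has an earlier start. Capitals mark GAGGAA, read as TTCCTC where it lies on the other strand, and in Tlr9 also TGACTCA, a match to the AP-1 word TGANTCA.
Tlr13, chrX:106143025-106143203, plus strand: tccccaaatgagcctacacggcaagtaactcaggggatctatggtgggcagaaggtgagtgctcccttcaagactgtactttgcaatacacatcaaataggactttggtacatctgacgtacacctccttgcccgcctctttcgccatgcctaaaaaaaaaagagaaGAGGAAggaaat
Tlr8, chrX:167264330-167264579, minus strand: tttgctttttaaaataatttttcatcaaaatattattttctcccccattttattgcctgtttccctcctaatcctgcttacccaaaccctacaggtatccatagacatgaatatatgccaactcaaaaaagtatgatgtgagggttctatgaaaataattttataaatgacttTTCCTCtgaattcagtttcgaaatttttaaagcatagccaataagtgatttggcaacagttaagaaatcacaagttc
Tlr9, chr9:106222348-106222597, plus strand: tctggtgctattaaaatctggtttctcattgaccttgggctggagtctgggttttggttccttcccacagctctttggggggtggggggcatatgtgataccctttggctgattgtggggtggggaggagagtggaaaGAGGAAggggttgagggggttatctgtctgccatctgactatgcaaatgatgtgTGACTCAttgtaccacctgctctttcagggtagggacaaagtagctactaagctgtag
Of the 10 windows found, for 8 of the genes, GAGGAA was in 4 (1 each of Tlr1, Tlr8, Tlr9 and Tlr13), and in 23.3% of all 32851 windows. The match of Tlr1 lies past an annotated start and is not shown. A doubled GAAA word of interferon regulatory factors was in 2 (Myd88 and Tlr6), and in 2.98% of all windows. An NF-κB-like word, GGG and CC with 5 free bases between them, was in 3 (Tlr2, Tlr3 and Tlr6), and in 45.8% of all, and TGANTCA was in 1 (Tlr9), and in 6.75% of all. These are matches of letters only.

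In iWAT, 9 of the 10 genes were higher in Ai-α4KO than in Control in the quasi-likelihood test of edgeR (adjusted p, by Benjamini-Hochberg, below 0.01 and at least 2-fold), where 11.3% of all 14604 genes tested were called higher. In BAT the same 9 genes were called, against 18.2% of 14344 genes. Tlr1, Tlr2 and Tlr13 had the largest log2 fold changes of the 10 in both depots, and Tlr3 had the smallest and did not reach 2-fold in either. The median log2 fold change of the 10 was 1.88 in iWAT and 3.28 in BAT, where the median of all genes tested was 0.01 and -0.03. All 10 genes had no overlap between the 5 Ai-α4KO and the 5 Control libraries in iWAT, and 9 of 10 in BAT, against 20.7% and 24.7% of all genes tested that lay apart in this direction. Among the 12 macrophage markers the median was 1.71 in iWAT, with 11 called higher, and 3.68 in BAT, with 12 called higher. Of 7 general leukocyte markers 6 were called higher in iWAT and 7 in BAT. In BAT 4 of 6 T cell markers were called higher, with sums of 2.81 to 4.93 CPM in Control and 14.5 to 57.7 CPM in Ai-α4KO, and of 6 dendritic cell markers 5 were called higher and 1 lower. In iWAT the sums overlapped, at 7.91 to 238.0 and 14.8 to 55.0 CPM for T cells and 11.4 to 61.4 and 15.7 to 33.1 CPM for dendritic cells. The part of these cells in the receptor levels was not tested.

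**Figure D1:**
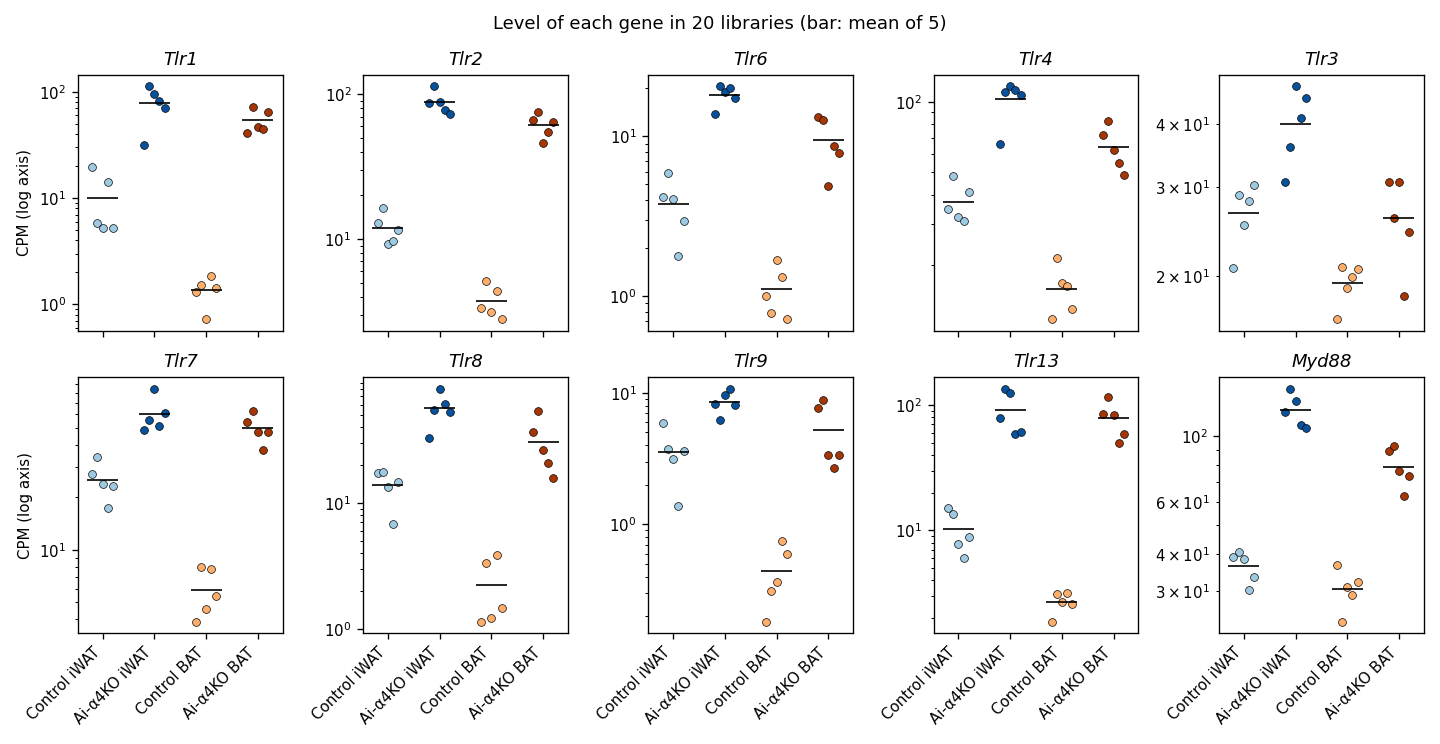
Level of each of the 10 genes in CPM, on log axes with a scale for each panel, in the 5 libraries of each group, with a bar at the mean of 5. Tlr1 shows the widest gap, from 0.725 to 1.83 CPM in Control BAT to 40.8 to 71.4 CPM in Ai-α4KO BAT, while Tlr3 overlaps between the groups in BAT.

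Tlr2, the receptor that pairs with Tlr1 or Tlr6 for bacterial lipopeptides, lay at 12.9, 16.4, 9.2, 9.66 and 11.5 CPM in the Control iWAT libraries and at 87.2, 113.1, 88.6, 77.9 and 73.0 CPM in Ai-α4KO iWAT. In BAT it lay at 3.32, 5.16, 3.13, 4.34 and 2.79 CPM in Control and at 66.8, 75.3, 45.9, 55.1 and 63.8 CPM in Ai-α4KO. Every Ai-α4KO library was above every Control library of its depot. Tlr2 rose by a log2 fold change of 2.88 ± 0.18 (SE) in iWAT, with an adjusted p of 1.95e-06, and of 4.0 ± 0.20 in BAT, 16.0-fold, with an adjusted p of 5.51e-08 (edgeR).

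Tlr1, a partner of Tlr2, lay at 19.5, 5.84, 5.26, 14.3 and 5.25 CPM in Control iWAT and at 31.8, 112.3, 95.6, 82.0 and 70.3 CPM in Ai-α4KO iWAT. The Control libraries 1 and 4, which held the lymphocyte markers, were the highest of their group, and the Ai-α4KO library 1, which held muscle markers, was the lowest of its group. Tlr1 lay at 1.32, 1.53, 0.725, 1.83 and 1.43 CPM in Control BAT and at 40.8, 71.4, 47.1, 44.7 and 64.8 CPM in Ai-α4KO BAT. It rose by 2.95 ± 0.46 on the log2 scale in iWAT (7.73-fold, edgeR adjusted p 0.000275) and by 5.25 ± 0.26 in BAT (38-fold, adjusted p 5.43e-08). Without the 2 Control libraries of high lymphocyte markers the log2 fold change in iWAT was 3.76, and without the 2 iWAT libraries of high muscle markers it was 3.30. Tlr6, the other partner, ran from 1.79 to 5.90 CPM in Control iWAT and from 13.7 to 20.5 CPM in Ai-α4KO iWAT, a log2 fold change of 2.26 ± 0.28. In BAT it ran from 0.717 to 1.68 and from 4.91 to 13.2 CPM, a log2 fold change of 3.07 ± 0.32, and the groups did not overlap in either depot.

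Tlr4, the lipopolysaccharide receptor, lay at 34.6, 47.9, 32.2, 30.7 and 41 CPM in Control iWAT and at 65.7, 110.6, 116.4, 112.4 and 106.8 CPM in Ai-α4KO iWAT. Library 1 of the Ai-α4KO group lay well under the other 4, and still above every Control library. In BAT Tlr4 lay at 11.7, 21.5, 16.8, 16.2 and 12.9 CPM in Control and at 72.0, 82.9, 62.3, 54.7 and 48.7 CPM in Ai-α4KO. Its log2 fold changes, 1.45 ± 0.17 in iWAT (edgeR adjusted p 4.5e-05) and 1.99 ± 0.19 in BAT (adjusted p 2.59e-06), were called and were under those of Tlr1, Tlr2 and Tlr6 in both depots.

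Tlr3, the endosomal receptor for double-stranded RNA, which signals through Ticam1 in place of Myd88, was the member that moved least. It lay at 20.7, 28.9, 25.2, 28.1 and 30.2 CPM in Control iWAT and at 30.7, 36, 47.4, 41 and 45 CPM in Ai-α4KO iWAT, where the lowest Ai-α4KO library was just above the highest Control library. In BAT it lay at 16.4, 20.8, 18.9, 19.9 and 20.6 CPM in Control and at 30.6, 26, 30.6, 18.2 and 24.4 CPM in Ai-α4KO, where library 4 fell within the Control range. That library also held the highest sum of muscle markers, 39021.0 CPM. The log2 fold change was 0.58 ± 0.14 in iWAT (1.5-fold, edgeR adjusted p 0.00438) and 0.39 ± 0.15 in BAT (1.31-fold, adjusted p 0.0382), and neither was called.

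Tlr7 and Tlr8, neighbouring genes for sensors of single-stranded RNA, both rose. Tlr7 lay at 27.2, 34, 23.9, 17.5 and 23.2 CPM in Control iWAT and at 49.0, 55.6, 84.1, 51.2 and 61.3 CPM in Ai-α4KO iWAT. It lay at 3.87, 7.98, 4.58, 7.76 and 5.42 CPM in Control BAT and at 54.3, 62.6, 47.8, 37.5 and 47.5 CPM in Ai-α4KO BAT. The Control levels of the depots were far apart and the Ai-α4KO levels overlapped, and the log2 fold change was 1.25 ± 0.19 in iWAT (edgeR adjusted p 0.000234) and 3.04 ± 0.22 in BAT (adjusted p 3.6e-07). Tlr8 ran from 6.77 to 17.5 CPM in Control iWAT and from 32.7 to 80.2 CPM in Ai-α4KO iWAT, a log2 fold change of 2.01 ± 0.28. In BAT it ran from 1.14 to 3.88 and from 15.8 to 53.7 CPM, a log2 fold change of 3.74 ± 0.43, with no overlap in either depot.

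Tlr13, the mouse sensor of bacterial ribosomal RNA, lay at 15, 13.5, 7.74, 6.02 and 8.82 CPM in Control iWAT and at 78.8, 134.3, 124.8, 58.5 and 60.8 CPM in Ai-α4KO iWAT. In BAT it lay at 1.87, 3.09, 2.67, 3.17 and 2.59 CPM in Control and at 84.6, 115.6, 82.6, 49.4 and 58.9 CPM in Ai-α4KO. The groups were far apart in both depots, with log2 fold changes of 3.15 ± 0.33 in iWAT (8.89-fold, edgeR adjusted p 1.92e-05) and 4.83 ± 0.26 in BAT (28.4-fold, adjusted p 5.83e-08). Tlr9, the sensor of unmethylated CpG DNA, lay at 5.91, 3.76, 3.16, 1.39 and 3.58 CPM in Control iWAT and at 8.26, 6.18, 9.58, 10.7 and 8.09 CPM in Ai-α4KO iWAT, so that the groups nearly touched. It ran from 0.182 to 0.741 CPM in Control BAT and from 2.70 to 8.77 CPM in Ai-α4KO BAT. Its log2 fold change was 1.26 ± 0.32 in iWAT (edgeR adjusted p 0.00592) and 3.49 ± 0.46 in BAT (adjusted p 3.71e-05). The call in iWAT was lost on leaving out library 2, 3 or 5 of Control or library 3, 4 or 5 of Ai-α4KO, with adjusted p from 0.0119 to 0.0191.

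Myd88, the shared adaptor, lay at 39, 40.6, 38.4, 30.2 and 33.4 CPM in Control iWAT and at 120.8, 144.9, 132.0, 109.7 and 107.1 CPM in Ai-α4KO iWAT. It lay at 36.8, 23.6, 31, 29.0 and 32.2 CPM in Control BAT and at 89.6, 93.2, 76.1, 62.9 and 73.3 CPM in Ai-α4KO BAT. The Control levels of both depots overlapped, unlike those of most receptors, and the Ai-α4KO levels were above them in every library. The log2 fold change was 1.75 ± 0.12 in iWAT (3.37-fold, edgeR adjusted p 2.53e-06) and 1.33 ± 0.15 in BAT (2.52-fold, adjusted p 8.66e-06).

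**Figure D2:**
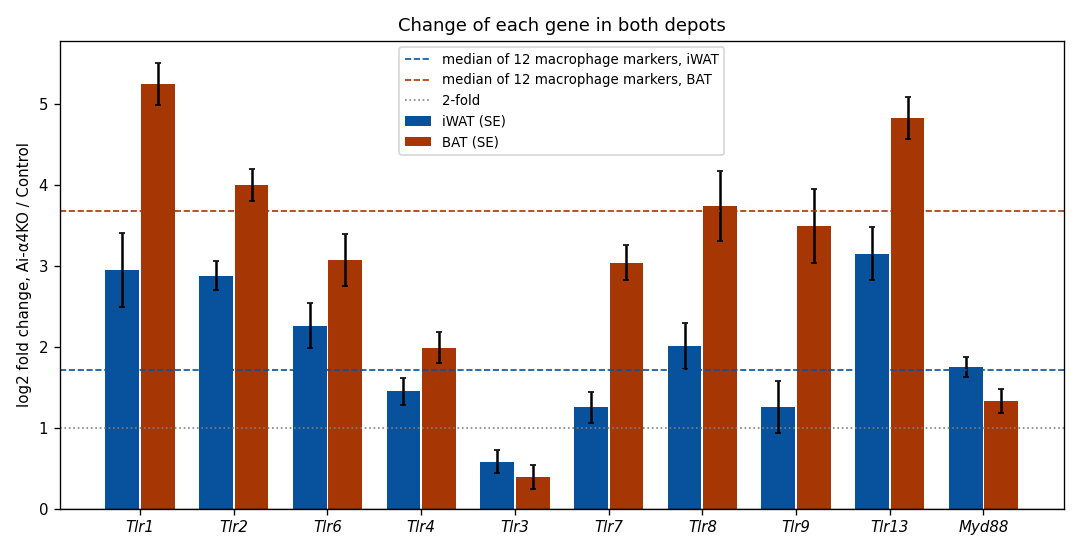
Log2 fold change of each gene, Ai-α4KO over Control, with its standard error, in iWAT and BAT, with dashed lines at the median of the 12 macrophage markers (1.71 in iWAT, 3.68 in BAT) and a dotted line at 2-fold. Tlr1, Tlr2, Tlr8 and Tlr13 stand above the line of their depot in both depots, Tlr8 by less than its standard error in BAT, and Tlr3 is under 2-fold in both.

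The genotype effect was then compared between the depots, with the difference itself tested in 1 model of all 20 libraries. It was larger in BAT for 3 of the 10 genes by edgeR at an adjusted p below 0.01, namely Tlr1, Tlr2 and Tlr7, where 3.26% of all 15230 genes tested were called in this direction. The difference of the log2 fold changes, BAT minus iWAT, was 1.81 ± 0.30 for Tlr7 (adjusted p 0.000925), 1.15 ± 0.26 for Tlr2 (adjusted p 0.00796) and 2.32 ± 0.54 for Tlr1 (adjusted p 0.0087). It was 1.70 for Tlr13 and 2.27 for Tlr9, with adjusted p of 0.0105 and 0.0123, just past the threshold, and 1.75 for Tlr8 (adjusted p 0.0305). For Tlr4, Tlr6, Tlr3 and Myd88 it was 0.56, 0.85, -0.16 and -0.39, with adjusted p from 0.157 to 0.62. The call of Tlr7 held in all 30 alternatives tried. That of Tlr1 was lost without either Control iWAT library of high lymphocyte markers, with 2.05 (adjusted p 0.0102) without library 1, 2.16 (adjusted p 0.017) without library 4 and 1.56 (adjusted p 0.0241) without both. It was also lost without library 4 or 5 of Ai-α4KO iWAT, library 1, 2, 3 or 5 of Control BAT or library 2, 4 or 5 of Ai-α4KO BAT, with adjusted p of up to 0.0192. The call of Tlr2 was lost without library 2 or 5 of Control iWAT or library 1, 3 or 5 of Control BAT, with differences of 1.01 to 1.16 and adjusted p of up to 0.0181. With limma on log2(FPKM + 1) the difference was 0.89 for Tlr1 (adjusted p 0.2) and 0.63 for Tlr2 (adjusted p 0.0869), and with limma on log2(FPKM + 0.1) it was 2.02 and 1.16 (adjusted p 0.0175 and 0.0107), so that neither was called. Of the 30 alternatives, Tlr1 was called in 15 and Tlr13 in 14, the latter with DESeq2 (adjusted p 0.000377) and with the other scalings and filters (adjusted p 0.0045 to 0.00922). The macrophage markers moved in the same direction, with 9 of 12 called larger in BAT.

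In the Control libraries 8 of the 10 genes were lower in BAT than in iWAT, by edgeR at an adjusted p below 0.01 and at least 2-fold, where 14.7% of 14260 genes tested were called lower. Their log2 differences, BAT minus iWAT, were -3.03 for Tlr9, -2.90 for Tlr1, -2.68 for Tlr8, -2.13 for Tlr7, -1.97 for Tlr13, -1.81 for Tlr6, -1.71 for Tlr2 and -1.28 for Tlr4. Tlr3 differed by -0.50 (adjusted p 0.00489, under 2-fold) and Myd88 by -0.28 (adjusted p 0.107). The same 8 genes were those whose depots did not overlap in Control, against 19.5% of all genes tested in this direction. All 12 macrophage markers were also called lower in Control BAT, with a median log2 difference of -2.48. So were the 6 tested B cell and the 6 T cell markers, with medians of -6.1 and -4.81. Without libraries 1 and 4 of Control iWAT, which held most of those markers, the same number of genes was called, and the difference was -2.01 for Tlr1, behind Tlr9 (-2.98), Tlr8 (-2.78) and Tlr7 (-2.21).

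Levels of different genes were compared per transcript length, as the deposited FPKM, fragments scaled to transcript length and library size. Myd88 was first in every group, with mean FPKM of 17.1 in Control iWAT, 63.2 in Ai-α4KO iWAT, 12.5 in Control BAT and 38 in Ai-α4KO BAT, and its range did not overlap that of the next gene in any of them. The leading receptor was Tlr4 in Control iWAT (mean FPKM 8.73), with a range that overlapped that of Tlr7 (5.69), and Tlr3 in Control BAT (3.46), with a range that overlapped that of Tlr4 (3.17). It was Tlr2 in both Ai-α4KO groups, at a mean FPKM of 30.2 in iWAT and 19.7 in BAT, where its range overlapped that of Tlr4 and of Tlr13 respectively. Tlr9 was last in all 4 groups, at 0.927, 2.42, 0.0991 and 1.39 mean FPKM in Control iWAT, Ai-α4KO iWAT, Control BAT and Ai-α4KO BAT. Most neighbours in these orders overlapped, and the breaks were after Tlr7 and after Tlr6 in Ai-α4KO iWAT and after Tlr4 and after Tlr6 in Control BAT.

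The make-up of the receptor transcripts was described as each gene's percentage of the summed FPKM of the 9 receptors, with no test. The median sum was 34.4 FPKM for Control iWAT against 147.4 FPKM for Ai-α4KO iWAT, and 9.97 FPKM for Control BAT against 89.0 FPKM for Ai-α4KO BAT. Tlr3 and Tlr4 together made up 31.3 to 46.2% of it in Control iWAT and 19.8 to 26.7% in Ai-α4KO iWAT, and 56.4 to 67.0% and 18.8 to 23.6% in BAT. Tlr1, Tlr2 and Tlr13 together made up 20.4 to 33.3% in Control iWAT and 44.6 to 58.5% in Ai-α4KO iWAT, and 15.4 to 19.3% and 49.8 to 59.7% in BAT. None of these pairs of ranges overlapped. Tlr1, Tlr2 and Tlr13 had the largest fold changes in both depots, and Tlr3 the smallest. A shift in these shares therefore follows from the grouping and is no separate result. The share of Tlr7, Tlr8 and Tlr9 overlapped between the genotypes in both depots, with medians of 31.8% and 23.4% in iWAT and 16.0% and 21.6% in BAT. The ratio of Myd88 to the summed receptors in FPKM ran from 0.732 to 1.81 in Control BAT and from 0.335 to 0.405 in Ai-α4KO BAT, and in iWAT the ranges, 0.448 to 0.598 and 0.362 to 0.551, overlapped.

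**Figure D3:**
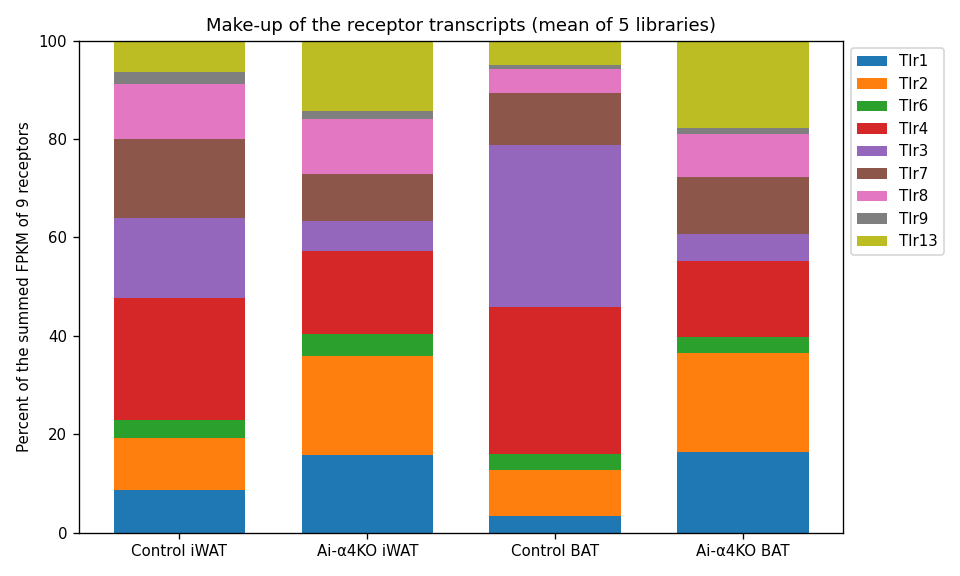
Stacked bars of each receptor's percentage of the summed FPKM of the 9 receptors, as the mean of 5 libraries of each group. Control BAT is mostly Tlr3 (mean 33.0%) and Tlr4 (29.8%), while the Ai-α4KO bars of both depots are similar in make-up, with Tlr2 at 20% in each.

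Because the macrophage markers moved with the receptors, each gene was also read against them, as its log2 CPM minus the mean log2 CPM of the 12 markers in the same library. A 2-sided exact permutation test over all arrangements of 5 against 5 libraries was used, in which 0.00794 is the smallest p that can be had, with p adjusted (Benjamini-Hochberg) over all genes tested. Tlr2 and Tlr13 were higher against the mean of the markers in Ai-α4KO in both depots, and Tlr1 was so in BAT. The single markers changed unequally. Their log2 fold changes ran from 0.81 (Mertk) to 2.96 (Fcgr1) in iWAT and from 1.23 (Mertk) to 4.75 (Aif1) in BAT. Tlr2, at 2.88 and 4.0, lay within that range in both depots. Tlr13, at 3.15 and 4.83, and Tlr1 in BAT, at 5.25, lay above it. In iWAT the Ai-α4KO minus Control difference was 1.0 for Tlr2 and 1.25 for Tlr13, each with no overlap and an exact permutation p of 0.00794 (adjusted p 0.00954). In BAT it was 1.69 for Tlr1 and 1.23 for Tlr13 (exact permutation p 0.00794, adjusted p 0.00881), and 0.46 for Tlr2, where the groups overlapped (exact permutation p 0.0159, adjusted p 0.0174). That call of Tlr2 in BAT was lost without library 1, 4 or 5 of Ai-α4KO (0.40 to 0.46, adjusted p 0.0509 to 0.0515, exact permutation test) and with general leukocyte markers as the reference (0.35, adjusted p 0.148). Only 1.91% of all genes tested in iWAT and 1.3% in BAT were called higher on this scale at an adjusted p below 0.05. Tlr1 in iWAT differed by 1.18 with overlap (exact permutation p 0.0635), and by 1.91 without the 2 Control libraries of high lymphocyte markers (adjusted p 0.0214, exact permutation test), where it was called.

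Lower values against the markers were the rule on this scale, with 87.1% of all genes called lower in iWAT and 91.8% in BAT. Tlr3 and Tlr7 were called lower in iWAT, by -1.31 and -0.63, and Tlr3, Myd88, Tlr4 and Tlr7 in BAT, by -3.16, -2.20, -1.54 and -0.47, each at an exact permutation p of 0.00794. Myd88 in iWAT differed by -0.14 (exact permutation p 0.23) and Tlr4 by -0.45 (exact permutation p 0.0556). Tlr6, Tlr8 and Tlr9 overlapped between the groups in both depots, with differences from -0.54 to 0.44 and exact permutation p from 0.0794 to 0.532. With log2(FPKM + 1) in place of log2 CPM, the differences in BAT were 0.07 for Tlr1, 0.02 for Tlr13 and -0.22 for Tlr2, and none of them was called, where the mean Control levels were 0.349, 0.517 and 1.02 FPKM. On that scale Tlr6, Tlr8 and Tlr9 were called lower in BAT, by -1.9, -0.97 and -2.5 (adjusted p 0.00825, exact permutation test), and Tlr9 and Tlr4 in iWAT, by -1.13 and -0.50 (adjusted p 0.00861 and 0.0417). The calls of Tlr2 and Tlr13 in iWAT were kept with it.

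**Figure D4:**
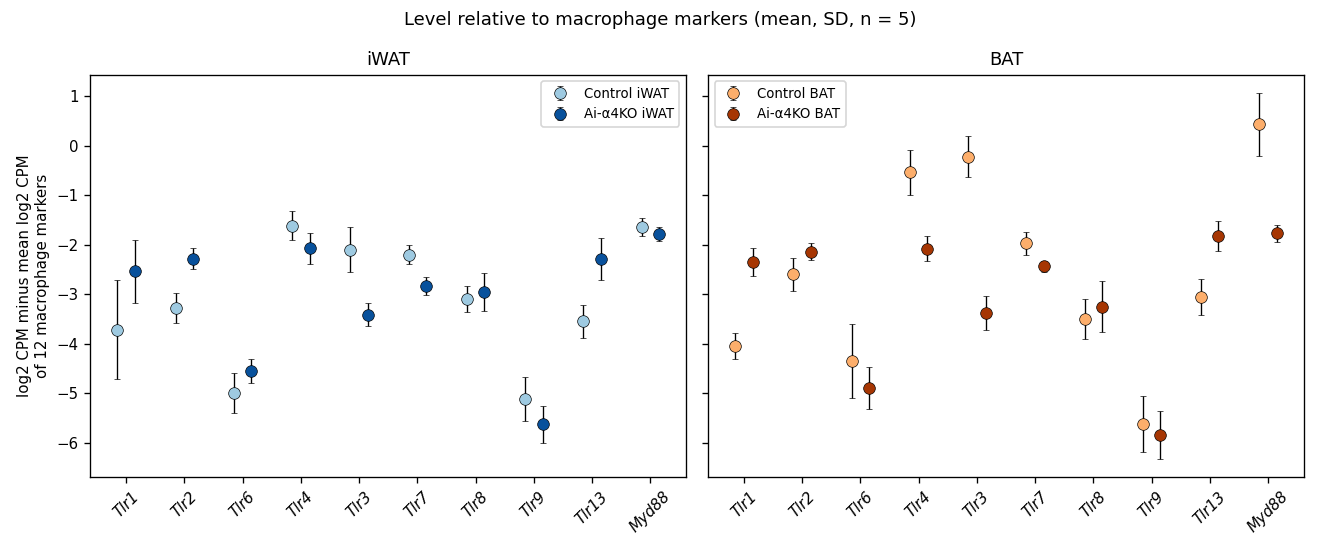
Log2 CPM of each gene minus the mean log2 CPM of the 12 macrophage markers in the same library, as mean and SD of 5 libraries of each group, in iWAT and BAT. Tlr13 and Tlr2 lie higher in Ai-α4KO in both depots, while Myd88, Tlr3 and Tlr4 lie lower in Ai-α4KO BAT, with Myd88 at 0.43 in Control and -1.77 in Ai-α4KO.

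The proteins that work with these receptors were taken by role, with the same test and background. Of 10 co-receptors and chaperones, 8 were called higher in each depot. They included Cd14, which hands lipopolysaccharide to Tlr4 (log2 fold change 1.75 in iWAT and 2.87 in BAT), Ly96, the partner of Tlr4 that binds it (1.76 and 1.95), and Unc93b1, which carries the nucleic acid receptors to endosomes (1.07 and 2.13). Ly86, the partner of the Tlr4-like receptor Cd180, had the largest change of this group, with 2.54 and 4.47. Cd36, a fatty acid transporter that also acts as a co-receptor for Tlr2 with Tlr6, differed by -0.64 and -0.94, under 2-fold.

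Of 5 further adaptors, 2 were called higher in each depot. Ticam2, which couples Tlr4 to Ticam1, rose by 1.70 in iWAT and 3.33 in BAT on the log2 scale, and Pik3ap1, which couples receptors to PI3-kinase, by 1.45 and 3.09. Tirap, which brings Myd88 to Tlr2 and Tlr4, differed by 0.93 and 0.91, under 2-fold. Ticam1, the adaptor of Tlr3, differed by 0.58 in iWAT and -0.41 in BAT, neither of them called, and that difference between the depots, -0.96, had an adjusted p of 0.00526 by edgeR, where 1.6% of all genes tested were called smaller in BAT.

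Most of the 20 kinases and ubiquitin ligases that act below Myd88 and Ticam1 were not called. Irak4, Irak1, Irak2 and Traf6 differed by 0.90, -0.29, -0.44 and 0.28 in iWAT and by 0.87, -0.60, -0.46 and 0.06 in BAT on the log2 scale. Ikbke, a kinase of the interferon arm, was the single one called higher, with 1.64 in iWAT and 3.60 in BAT, where library size without normalization factors and limma on log2(FPKM + 0.1) gave 2 in each depot. Peli2, an ubiquitin ligase of the Irak complex, fell in both depots (log2 fold change -1.29 and -1.69, not called in iWAT by limma on log2(FPKM + 1)), and Peli3 fell in BAT (-1.97), where 1 in place of 2 was called lower with limma on log2(FPKM + 1) or with at least 10 counts in every library, a filter that leaves out Peli3. In iWAT Peli3 differed by -1.12 with no overlap and was not called (edgeR adjusted p 0.0179). There 2 in place of 1 were called lower at an adjusted p below 0.05 and with DESeq2. Of all genes tested, 10.7% in iWAT and 13.3% in BAT were called lower. Of 4 interferon regulatory factors, Irf5 (2.0 and 3.56) and Irf7 (1.27 and 1.98) were called higher in both depots and Irf8 in BAT (2.96), while Irf8 in iWAT differed by 0.71 with an adjusted p of 0.212 (edgeR). Irf8 lay at 67.2 and 29.7 CPM in libraries 1 and 4 of Control iWAT, those of high lymphocyte markers, at 11 to 13.7 CPM in the other 3 and at 34.5 to 53.6 CPM in Ai-α4KO iWAT. Without those 2 libraries 3 of the 4 factors were called higher in iWAT.

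Among 10 inhibitors of the pathway, 4 were called higher in each depot, including Irak3, the inactive kinase that holds back the Myd88 complex (log2 fold change 1.14 in iWAT and 1.48 in BAT), Tnfaip3, a deubiquitinase (1.44 and 2.03), Il1rl1, the interleukin 33 receptor (1.84 and 1.95), and Socs1 in BAT (2.55). With a score of skeletal muscle markers as a covariate, 2 of the inhibitors were called higher in BAT. Of 5 proteases that cut the endosomal receptors into their active form, 2 were called higher in iWAT and 4 in BAT, with Ctss at 2.92 and 5.22 and Lgmn at 2.37 and 3.21. Of 10 molecules described as endogenous ligands, 5 were called higher in iWAT and 6 in BAT, led by Saa3, a serum amyloid A protein (6.96 and 6.60), with S100a8 at 2.59 and 3.86. S100a8 is also a marker of neutrophils, whose 7 measured markers summed to 19.9 to 118.3 CPM in Control iWAT and 146.2 to 494.3 CPM in Ai-α4KO iWAT, and to 12.3 to 36.2 and 201.3 to 363.9 CPM in BAT. That sum includes S100a8 and S100a9 themselves. In iWAT 4 of the 7 were called higher, against 11.3% of all genes tested. Retnlg (0.36), Mmp8 (1.61) and Ngp (-3.91) were not called there. In BAT all 6 tested were called higher, against 18.2% of all genes.

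Of 6 genes of the interleukin 1 family branch, which also signals through Myd88, 4 were called higher in iWAT and 5 in BAT, with Il18rap, a chain of the interleukin 18 receptor, at 3.13 and 4.57, and with that 5 at 3 by limma on log2(FPKM + 1) or with at least 10 counts in every library. Of 11 tested genes that the receptors are known to induce, 8 were called higher in iWAT and 9 in BAT. With a filter of at least 10 counts in every library, which leaves out genes near 0 in Control such as Il6, 3 of them were called higher in BAT. Il6, a cytokine, lay between 0.0212 and 0.155 CPM in Control iWAT and between 16.9 and 63.9 CPM in Ai-α4KO iWAT, and at most at 0.137 CPM in Control BAT against 14.7 to 34.9 CPM in Ai-α4KO BAT. Cxcl1, a neutrophil chemokine, rose by 8.30 and 7.74 on the log2 scale. Nfkbia, the inhibitor of NF-κB that is induced by it, differed by 0.39 in iWAT and 0.19 in BAT and was not called.

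**Figure D5:**
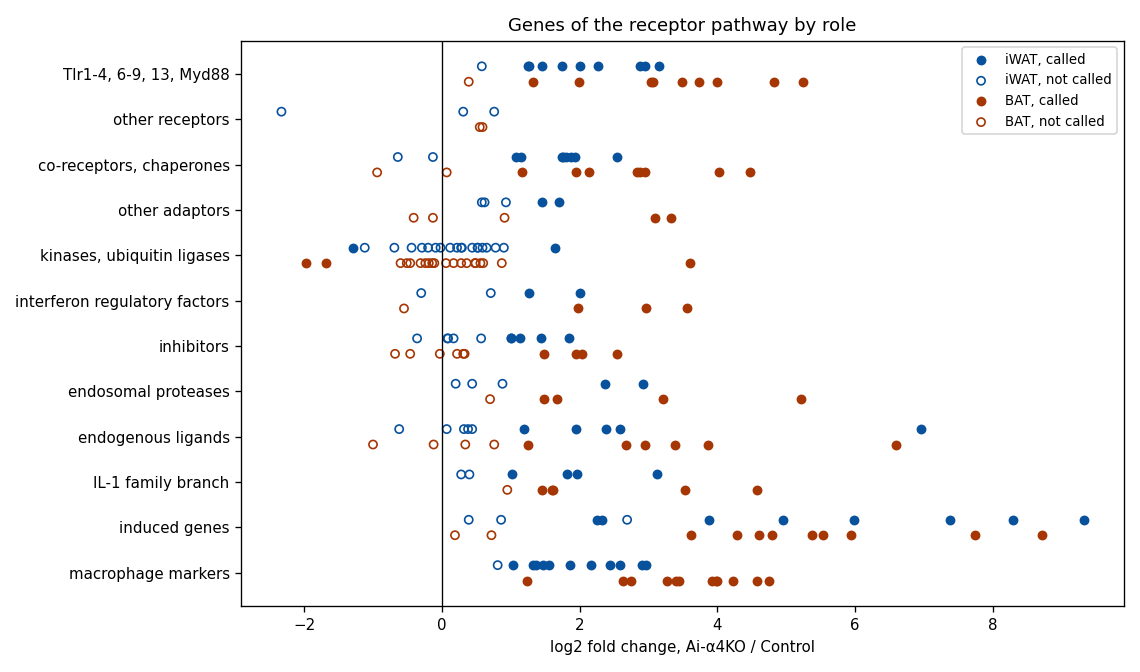
Log2 fold change, Ai-α4KO over Control, of each tested gene of the pathway by role, in iWAT (blue) and BAT (brown), with filled points for genes called at an adjusted p below 0.01 and at least 2-fold. Most kinases and ubiquitin ligases lie around 0 in both depots and are not called, apart from Ikbke, called higher at 1.64 and 3.60, Peli2, called lower at -1.29 and -1.69, and Peli3, called lower in BAT at -1.97.

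Of the other 3 Toll-like receptor genes (Tlr5, Tlr11 and Tlr12) 0 were called in iWAT by edgeR, DESeq2 or limma, and 2 of the 3 had an unadjusted p below 0.05. In BAT 0 of the 2 tested were called by any of these tools, and 0 had an unadjusted p below 0.05. Tlr5, the flagellin receptor, ran from 6.11 to 12.6 CPM in Control iWAT and from 11.4 to 22 CPM in Ai-α4KO iWAT, with a log2 fold change of 0.76. In BAT it ran from 4.37 to 5.91 CPM in Control and from 4.06 to 15.2 CPM in Ai-α4KO. Tlr12 lay at 4.0 and 3.04 CPM in libraries 1 and 4 of Control iWAT, those of high lymphocyte markers. It lay at 0.0879 to 0.124 CPM in the other 3 and at 0.125 to 0.42 CPM in Ai-α4KO iWAT. Its log2 fold change in iWAT, -2.33, was not called, and its sign rests on those 2 Control libraries.

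Likeness of pattern was described by Pearson's r of log2 CPM over the 20 libraries, with no test, since the libraries form 4 groups and share their depth and tissue make-up. After each group's mean was subtracted, the 45 pairs among the 10 genes had r from -0.11 to 0.87, with a median of 0.41. The genes most like Tlr8 on this scale were Cd163 (r = 0.95), Itgam (0.91) and Mrc1 (0.90), and those most like Tlr7 were Ctsc (0.92), Slc8a1 (0.91) and Emr1, the F4/80 antigen (0.88). Those most like Tlr13 were Ms4a6c (0.89), Ms4a6d (0.88) and Msr1 (0.87). Tlr3 was most like Ifih1, a cytosolic sensor of double-stranded RNA, at 0.87, and Tlr1 was most like Ugcg, an enzyme of glycolipid synthesis (0.91), with Cd4 and Lcp1 at 0.90. Myd88 was most like Sdc4 (0.93), Tlr2 like Aoah (0.89), an enzyme that inactivates lipopolysaccharide, Tlr4 like Bbx (0.93), Tlr6 like Hivep1 (0.84) and Tlr9 like Siglec1 (0.88). With the group means left in, the closest genes had r from 0.94 to 0.99, such as Plek and Fcer1g for Tlr2 and Msr1 and Ms4a6d for Tlr13.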

How the data were processed

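RNA libraries were made with a stranded mRNA kit and sequenced as paired reads of 150 bases. The submitters' processing notes name bcl2fastq 2, STAR 2.5.3a and mm10; the counting tool is not given in the sources used here. The deposited table gives per gene expected counts and FPKM, the latter normalized by the authors to length and depth, for all 20 libraries; 76.6% of nonzero counts are exactly whole, and counts were rounded. edgeR 4.0.16 (R 4.3.3; filterByExpr, TMM) was fitted per depot, to the Control libraries, and to all libraries for the difference between depots, with Benjamini-Hochberg adjustment over all genes tested. CPM used TMM factors over 20 libraries. Values against macrophage markers used a prior count of 2, and their p-values were adjusted over all genes tested in place of the 10 alone. DESeq2 1.42.0, limma 3.58.1 on log2(FPKM + 1) or log2(FPKM + 0.1), other scalings, filters and left-out libraries were alternatives. Scripts were tested on simulated data. The 10 genes and all lists were chosen with earlier results of these data known. The text names all 10, in each list the called genes of largest change, those called against their list and those acting directly with a member, and for likeness 1 to 3 of the 3 genes of highest r; Nfkbia, S100a8, Irf7, Irf8, Socs1, Lgmn, Tnfaip3, Cxcl1, Pik3ap1, Cd36, Tlr5 and Tlr12 were named after their values were seen. With 24023371 to 50384446 counts a library, counting error weighs most on Tlr9, the gene of lowest mean CPM in every group.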

Additional observations from a re-analysis of the deposited data

Results flagged for a closer look

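In 1 of 40 groups of 5 libraries (10 genes in 4 groups) a library stood apart from the rest, where chance gives about 2. It was library 1 of Ai-α4KO iWAT for Tlr4, at 65.7 CPM against 106.8 to 116.4 CPM in the other 4, a gap of 0.81 of the whole range. The same library held skeletal muscle markers at 5099.9 CPM, and their part in the Tlr4 value was not tested.

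The change with genotype differed between the depots by the test of the difference itself for 3 genes. The log2 fold change was larger in BAT than in iWAT by 2.32 for Tlr1, by 1.15 for Tlr2 and by 1.81 for Tlr7. Of 30 alternatives, the call held in all 30 for Tlr7, in 23 for Tlr2 and in 15 for Tlr1.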

How the results depend on the processing

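The counts of the 10 genes called in iWAT (8 to 9), in BAT (8 to 9) and between the Control depots (6 to 8) stayed within 1.5 times of the values given above in all alternatives run, and the counts against macrophage markers were 4 to 6 in iWAT and 6 to 7 in BAT. The count for the difference between depots, 3, was 6 at an adjusted p below 0.05, 6 with DESeq2, 1 with limma on log2(FPKM + 1) and 1 with limma on log2(FPKM + 0.1), and 1 to 4 on leaving out 1 library, with 1 without library 1, 3 or 5 of Control BAT; the cause was not tested. Against macrophage markers in BAT, log2(FPKM + 1) gave 7 calls as before, but not of the same genes: Tlr1, Tlr2 and Tlr13 lost theirs as higher and Tlr6, Tlr8 and Tlr9 were called lower, with the sign turned for Tlr2 (-0.22) and Tlr8 (-0.97); the cause was not tested. Tlr9 in iWAT lost its call with limma on log2(FPKM + 1) (0.85). Tlr7 in iWAT lost its call against general leukocyte markers (-0.48). Library size without normalization factors moved the median log2 fold change of all genes to 0.13 from 0.01 (iWAT) and to 0.23 from -0.03 (BAT) (1894 higher and 1267 lower, and 3251 and 1265, against 1656 and 1559, and 2614 and 1910). With a score of muscle markers as a covariate in BAT, added after the data were seen, 9 of the 10 genes were called, while all genes called higher went from 2614 to 1538 and the inhibitors from 4 to 2; that score moves with genotype.

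The deviations of same-numbered libraries from their group means had r from -0.451 to 0.244. Differently numbered libraries were not compared, so these values cannot show whether the numbers pair the libraries. With the replicate block, the number of genes called was 8 in iWAT, 9 in BAT and 3 for the difference between depots, where Tlr13 was called (adjusted p 0.00617) and Tlr9 in iWAT (adjusted p 0.0176, edgeR) as well as the difference for Tlr1 (adjusted p 0.0198) lost their calls.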
